A study of Mus musculus with 16 samples.

Results

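Regulators of G protein signalling (RGS proteins) were followed here through 10 listed mouse genes, Rgs1, Rgs2, Rgs3, Rgs4, Rgs5, Rgs10, Rgs16, Rgs17, Rgs18 and Rgs19. The array annotation pairs 9 of the 10 genes with a probe set of their own, among 19938 genes in all, and Rgs10 is not analysed here. Each gene is represented by the probe set chosen by its mean brightness over all arrays, a choice that uses neither genotype nor treatment. The list itself was drawn up with earlier results of these data known, among them the TNFα response of Rgs2 in littermate cells, so counts over the list are descriptions.

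The arrays measured mRNA in mouse embryonic fibroblasts (MEFs) of C57Bl/6 x 129Sv background. The 4 groups were SIMPL-/- MEFs treated with TNFα, untreated SIMPL-/- MEFs, TNFα treated littermate MEFs and untreated littermate MEFs, with 4 arrays in each. The labels give the genotypes as IRAK1BP1 KO and WT, IRAK1BP1 being the gene of SIMPL, a coactivator of NF-κB in TNFα signalling, and give no age of the embryos. The treatment was recombinant human TNFα at 10 ng/ml for 45 min by the labels, whereas the methods give an hour. By the methods each strain's fibroblasts were derived 4 independent times, each time from a single embryo. Values are log2 RMA intensities, and levels of different genes cannot be ranked because each probe set binds with its own efficiency.

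Irak1bp1, the deleted gene, averaged 5.37 and 5.36 in TNFα treated and untreated SIMPL-/- MEFs, against 7.91 and 8.09 in the matching littermate MEFs, as the labels have it. Array medians were 6.67 to 6.76 and the lowest correlation between arrays of a group was 0.995. No source pairs treated with untreated arrays or gives a batch.

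An RGS protein binds the activated α subunit of a heterotrimeric G protein and speeds the hydrolysis of its GTP, which shortens the signal sent by a G protein-coupled receptor. Rgs1, Rgs2, Rgs3, Rgs4, Rgs5, Rgs16 and Rgs18 belong to the R4 family of small RGS proteins, Rgs17 and Rgs19 to the RZ family, and Rgs10 to the R12 family. In fibroblasts such receptors carry the signals of lysophosphatidic acid, sphingosine 1-phosphate, bradykinin, endothelin and prostaglandins, and several RGS genes are themselves switched on or off within an hour of a stimulus.

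Rgs16, Rgs4 and Rgs2 changed with TNFα in 1 genotype or both, and their promoters are shown because the transcripts moved within the short treatment. The windows run from 250 bases before to 50 bases after the RefSeq transcription start, on the gene's own strand, in GRCm38.p6. Such a window was at hand for 8 of the 10 listed genes, all but Rgs1 and Rgs18, which were not searched. Capitals mark matches to the cyclic AMP response element (CRE) core TGACG, which reads CGTCA where the match lies on the opposite strand.
Rgs16 (chr1:153740103-153740402, plus strand): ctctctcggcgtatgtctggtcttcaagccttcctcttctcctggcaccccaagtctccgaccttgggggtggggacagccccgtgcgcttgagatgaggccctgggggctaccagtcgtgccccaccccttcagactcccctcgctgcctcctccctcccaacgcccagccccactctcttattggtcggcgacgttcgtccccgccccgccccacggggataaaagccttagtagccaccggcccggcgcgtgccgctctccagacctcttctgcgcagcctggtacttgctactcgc
Rgs4 (chr1:169747593-169747892, minus strand): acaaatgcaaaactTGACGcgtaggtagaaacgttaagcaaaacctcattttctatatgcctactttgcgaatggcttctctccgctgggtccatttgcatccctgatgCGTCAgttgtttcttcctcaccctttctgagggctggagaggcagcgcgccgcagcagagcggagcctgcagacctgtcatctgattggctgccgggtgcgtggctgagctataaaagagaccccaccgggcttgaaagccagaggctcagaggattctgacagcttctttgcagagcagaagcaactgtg
Rgs2 (chr1:144004100-144004399, minus strand): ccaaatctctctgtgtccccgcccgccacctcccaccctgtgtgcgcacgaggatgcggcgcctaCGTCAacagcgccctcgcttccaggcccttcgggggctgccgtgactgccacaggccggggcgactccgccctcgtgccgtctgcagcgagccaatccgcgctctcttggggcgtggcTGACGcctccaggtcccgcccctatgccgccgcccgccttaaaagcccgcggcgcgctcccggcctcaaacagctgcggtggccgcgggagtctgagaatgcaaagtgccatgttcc
Both strands were searched for a κB motif, the full CRE TGACGTCA, its core TGACG (which every full CRE also contains), the AP-1 motif TGANTCA and the CArG box. Rgs4 had 2 CRE cores, at −236 to −232 and −141 to −137 from the transcription start. Rgs2 also had 2, at −185 to −181 and −67 to −63. Rgs16 matched none of the 5 motifs in this window. Among the other listed genes with a window, Rgs17 alone had a match, an AP-1 motif at −122 to −116. Of 32851 RefSeq promoter windows of this length, 20.8% held the CRE core, 8.46% the κB motif, 7.81% the AP-1 motif, 1.79% the full CRE and 1.63% the CArG box, so the core is a common match.

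Rgs16, an R4 protein that acts on Gi and Gq α subunits, rose with TNFα in both genotypes. Its log2 values (probe set 10350733) were 10.57, 10.58, 10.55 and 10.66 in TNFα treated SIMPL-/- MEFs, against 9.63, 9.46, 9.47 and 9.38 in untreated SIMPL-/- MEFs. They were 10.01, 10.13, 10.10 and 10.09 in TNFα treated littermate MEFs, against 8.49, 8.41, 8.41 and 8.28 in untreated littermate MEFs. The 4 groups did not overlap, and every array of a treated group lay above every untreated array of either genotype. The rise was 2.15-fold in SIMPL-/- MEFs (log2 1.11, SE 0.06, limma adjusted p = 7.23e-10) and 3.21-fold in littermate MEFs (log2 1.68, SE 0.06, limma adjusted p = 5.35e-13). The response was smaller in SIMPL-/- MEFs by 0.58 on the log2 scale (SE 0.09, 95% interval of the difference −0.76 to −0.40, limma adjusted p = 0.00209). The untreated SIMPL-/- level lay 1.09 above the untreated littermate level, so the smaller response started from the higher base and ended at the higher level.

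Rgs4, an R4 protein that acts on Gi and Gq α subunits and is rapidly degraded through the N-end rule pathway, rose with TNFα in littermate MEFs and was not called in SIMPL-/- MEFs. Its log2 values (probe set 10359908) were 7.93, 7.97, 8.15 and 8.15 in TNFα treated SIMPL-/- MEFs, against 8.44, 8.20, 8.27 and 8.30 in untreated SIMPL-/- MEFs. They were 7.34, 7.46, 7.46 and 7.37 in TNFα treated littermate MEFs, against 6.40, 6.56, 6.92 and 6.48 in untreated littermate MEFs. The order of the group means was untreated SIMPL-/-, treated SIMPL-/-, treated littermate and untreated littermate, and no neighbours in that order overlapped. In littermate MEFs the rise was 1.77-fold (log2 0.82, SE 0.09, limma adjusted p = 6.17e-06). In SIMPL-/- MEFs the difference was −0.25 (SE 0.09, 95% interval −0.45 to −0.06), and its limma adjusted p of 0.163 missed the threshold although all treated arrays lay below all untreated ones. The responses of the genotypes differed by −1.07 (SE 0.13, limma adjusted p = 0.000151), with the littermate change positive and the SIMPL-/- change negative in sign.

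Rgs2, an R4 protein with a preference for Gq, fell with TNFα in littermate MEFs. Its log2 values (probe set 10358389) were 5.91, 5.80, 5.77 and 6.23 in TNFα treated SIMPL-/- MEFs, against 6.16, 6.31, 6.13 and 6.20 in untreated SIMPL-/- MEFs. They were 6.57, 6.60, 6.88 and 6.46 in TNFα treated littermate MEFs, against 7.56, 7.32, 7.80 and 7.61 in untreated littermate MEFs. Littermate groups stood apart from each other, the SIMPL-/- groups overlapped, and the highest SIMPL-/- value was under the lowest littermate value. The treated littermate level was 1.92-fold lower than the untreated one, with limma's 95% interval of the log2 difference from −1.17 to −0.72. In SIMPL-/- MEFs the difference was −0.27 (95% interval −0.50 to −0.04, limma adjusted p = 0.224). The difference between the responses, 0.67 (SE 0.15), had a limma adjusted p of 0.0587. The littermate response, known when the list was drawn up, enters this difference, so its p-values and calls are read as description. Of the 16 fits that each left out 1 array, 3 called this difference and the remaining ones did not. The calls came without the second untreated littermate array (0.76, limma adjusted p = 0.0302), without the third treated littermate array (0.76, limma adjusted p = 0.0284) or without the third treated SIMPL-/- array (0.72, limma adjusted p = 0.0383). By the unmoderated test on all arrays the adjusted p was 0.16.

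**Figure D1:**
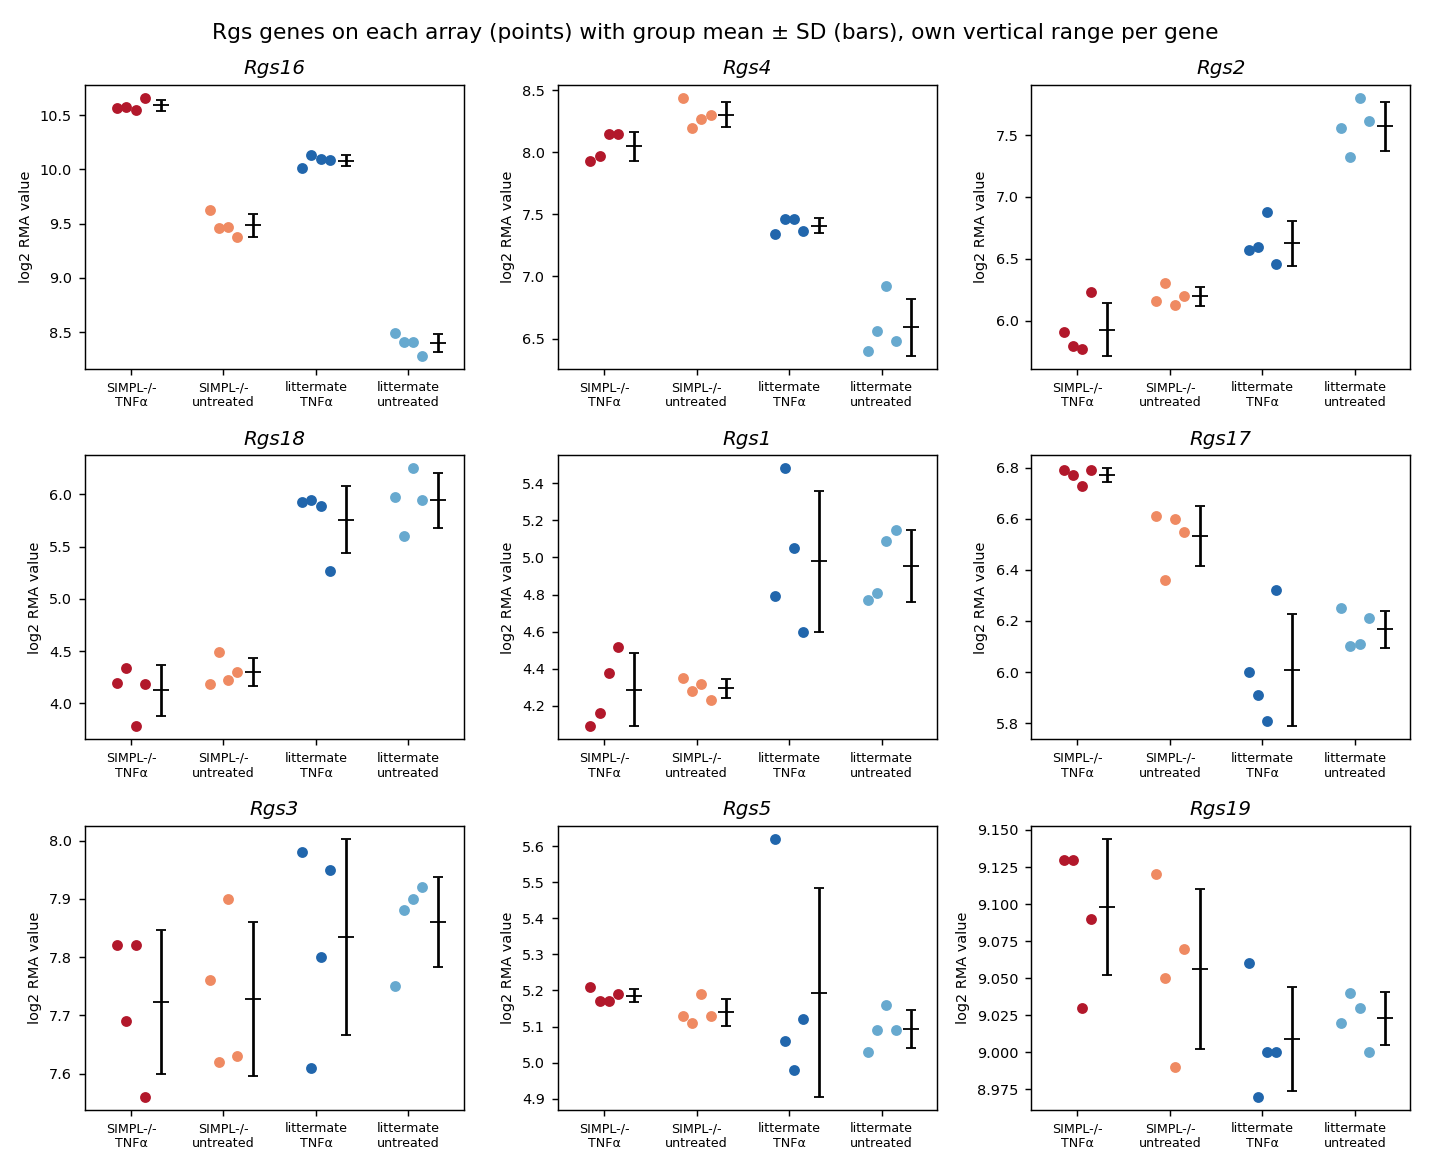
Log2 RMA values of the Rgs genes on each array (points) with the mean and SD of 4 arrays (bars), in TNFα treated and untreated SIMPL-/- MEFs and then TNFα treated and untreated littermate MEFs; each gene has its own vertical range. Rgs16 and Rgs4 separate into 4 groups without overlap, Rgs18 separates by genotype alone, and Rgs3, Rgs5 and Rgs19 show overlapping groups.

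Over the list, 1 of 9 measured genes rose (Rgs16) and 0 fell with TNFα in SIMPL-/- MEFs by limma, where 1.73% of all genes rose and 1.39% fell. At an unadjusted p under 0.05 the count of lower genes was 2, Rgs2 and Rgs4, and by the methods' t-test after adjustment it was 0. In littermate MEFs 2 of 9 rose (Rgs16 and Rgs4) and 1 fell (Rgs2), where 2.7% of all genes rose and 2.45% fell. The difference between the responses was called negative for 2 of 9 (Rgs4 and Rgs16) against 0.441% of all genes, and positive for 0 of 9 by limma against 0.0953%. At an unadjusted p under 0.05 the positive count was 2, Rgs2 and Rgs17, and by the unmoderated test after adjustment it was 0. The median log2 change of the 9 genes was −0.01 in SIMPL-/- MEFs, against −0.02 over all genes, and −0.01 in littermate MEFs, against 0.01 over all genes.

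**Figure D2:**
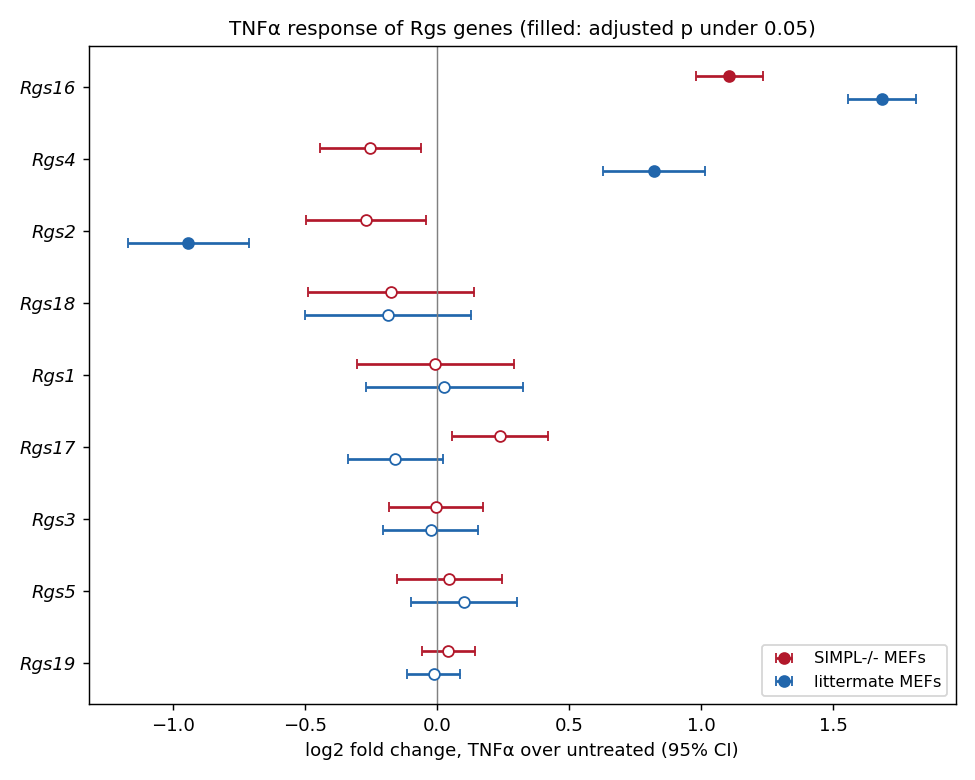
TNFα response of each measured Rgs gene as the log2 difference of treated minus untreated arrays, with limma's 95% interval, in SIMPL-/- and in littermate MEFs (4 arrays per group; filled points passed an adjusted p of 0.05 over 19938 genes). Rgs16 lies to the right of zero in both genotypes, Rgs4 to the right in littermate MEFs alone and Rgs2 to the left in littermate MEFs. In SIMPL-/- MEFs Rgs2 and Rgs4 lie to the left and Rgs17 to the right, with open points whose intervals leave out zero. All remaining intervals span zero.

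Between the genotypes, 6 of the 9 genes were called both after TNFα and without it, in the same direction each time. Rgs4, Rgs16 and Rgs17 were higher in SIMPL-/- MEFs, where 17.8% of all genes were higher after TNFα and 23.3% without it. Rgs1, Rgs2 and Rgs18 were lower, where 18.4% of all genes were lower after TNFα and 17.6% without it. With such a share of all genes called, a count of 3 in each direction is read as description. The median difference of the 9 genes was −0.01 after TNFα and 0.03 without it, against 0.03 and 0.08 over all genes.

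Rgs4 had the largest positive difference of the 9 between untreated genotypes, 3.28-fold (log2 1.71, SE 0.09, limma adjusted p = 2.86e-11), and was 1.56-fold higher in SIMPL-/- MEFs after TNFα (log2 0.64, limma adjusted p = 1.37e-05). Rgs16 was 2.12-fold higher without TNFα (log2 1.09, limma adjusted p = 6.28e-11) and 1.42-fold higher after it (log2 0.51, limma adjusted p = 1.66e-06). For both genes the gap between genotypes was narrower after TNFα. Rgs2 was 2.58-fold lower in SIMPL-/- MEFs without TNFα (log2 −1.37, limma adjusted p = 7.56e-09) and 1.62-fold lower after it (log2 −0.70, limma adjusted p = 3.87e-05).

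Rgs17, an RZ protein that acts on Gz and other Gi family subunits, was higher in SIMPL-/- MEFs. Its log2 values (probe set 10361358) were 6.79, 6.77, 6.73 and 6.79 in TNFα treated SIMPL-/- MEFs, 6.61, 6.36, 6.60 and 6.55 in untreated SIMPL-/- MEFs, 6.00, 5.91, 5.81 and 6.32 in TNFα treated littermate MEFs and 6.25, 6.10, 6.11 and 6.21 in untreated littermate MEFs. All SIMPL-/- arrays lay above all littermate arrays, and the littermate groups overlapped because of the fourth treated array, the highest of the littermates. After TNFα the gene was 1.7-fold higher in SIMPL-/- MEFs (log2 0.76, SE 0.09, limma adjusted p = 7.59e-07), and without TNFα 1.29-fold higher (log2 0.37, limma adjusted p = 0.00232). The TNFα difference was 0.24 in SIMPL-/- MEFs (limma adjusted p = 0.167) and −0.16 in littermate MEFs (limma adjusted p = 0.381), and the responses differed by 0.40 (limma adjusted p = 0.175). Without the fourth treated littermate array the littermate difference was −0.26 (limma adjusted p = 0.0385) and the difference between responses 0.50 (limma adjusted p = 0.0172), so that 1 array decides both calls.

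**Figure D3:**
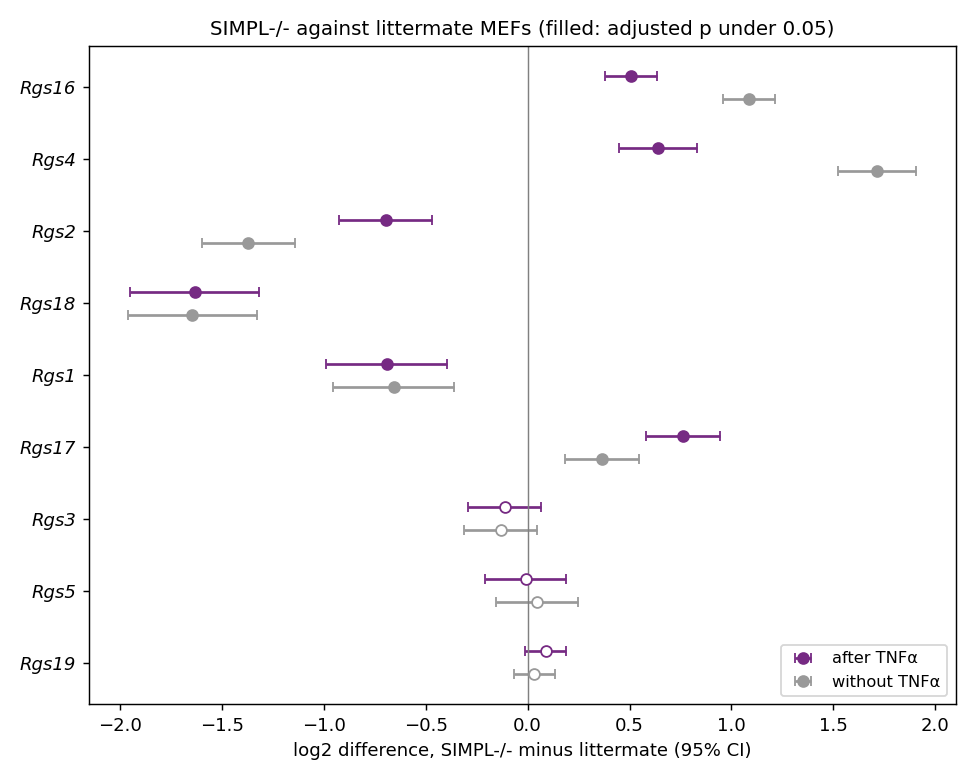
Difference of SIMPL-/- minus littermate MEFs for each measured Rgs gene on the log2 scale, with limma's 95% interval, after TNFα and without it (4 arrays per group; filled points passed an adjusted p of 0.05 over 19938 genes). Rgs4, Rgs16 and Rgs17 lie to the right of zero and Rgs1, Rgs2 and Rgs18 to the left under both conditions.

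Rgs18, an R4 protein known from platelets, megakaryocytes and other blood cells, had the largest negative genotype difference of the 9 genes under both conditions. Its log2 values (probe set 10358421) were 4.20, 4.34, 3.78 and 4.19 in TNFα treated SIMPL-/- MEFs, 4.19, 4.49, 4.22 and 4.30 in untreated SIMPL-/- MEFs, 5.93, 5.95, 5.89 and 5.27 in TNFα treated littermate MEFs and 5.98, 5.60, 6.25 and 5.95 in untreated littermate MEFs. The genotypes stood apart and the treatments overlapped within each. The gene was 3.1-fold lower in SIMPL-/- MEFs after TNFα (log2 −1.63, SE 0.15, limma adjusted p = 4.89e-08) and 3.13-fold lower without it (log2 −1.65, limma adjusted p = 5.29e-08). Its TNFα differences were −0.17 in SIMPL-/- and −0.19 in littermate MEFs, with limma adjusted p of 0.639 and 0.598.

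Rgs1, an R4 protein of leukocytes that dampens chemokine receptor signals, had log2 values (probe set 10358408) of 4.09, 4.16, 4.38 and 4.52 in TNFα treated SIMPL-/- MEFs, 4.35, 4.28, 4.32 and 4.23 in untreated SIMPL-/- MEFs, 4.79, 5.48, 5.05 and 4.60 in TNFα treated littermate MEFs and 4.77, 4.81, 5.09 and 5.15 in untreated littermate MEFs. All SIMPL-/- arrays lay below all littermate arrays, by a narrow margin after TNFα. The gene was 1.62-fold lower in SIMPL-/- MEFs after TNFα (log2 −0.69, SE 0.14, limma adjusted p = 0.000662) and 1.58-fold lower without it (log2 −0.66, limma adjusted p = 0.00115). The adjusted p after TNFα was 0.0594 by the methods' t-test.

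Markers of myeloid cells moved with these genotype differences. Of 30 such markers, 29 were lower in SIMPL-/- MEFs both after TNFα and without it by limma, all but Clec7a. Of all genes 18.4% were lower after TNFα and 17.6% without it. The 30 markers had median log2 differences of −2.13 and −2.02. Their mean log2 value per array was 7.29 to 7.40 in TNFα treated and 7.28 to 7.38 in untreated SIMPL-/- MEFs, against 9.26 to 9.68 in TNFα treated and 9.16 to 9.54 in untreated littermate MEFs. Macrophage markers were measured in the littermate cells, with mean log2 levels of 9.77 for Adgre1 and 11.48 for Cd68 after TNFα. In such bulk RNA, fewer cells of a type and less RNA per cell cannot be told apart, and the part of the myeloid markers in the differences of Rgs1, Rgs2 and Rgs18 was not tested. The megakaryocyte and platelet list held 5 measured genes, 3 of them dim, with median log2 differences of 0.13 after TNFα and 0.11 without it. After TNFα 1 of the 5 was higher (Gp9, 0.26) and 1 lower (Pf4) in SIMPL-/- MEFs, and without it Pf4 alone was called. Of all genes 17.8% were higher after TNFα and 23.3% without it, beside the lower shares above, so these counts are read as description. Pf4 had mean log2 levels of 6.37 and 6.80 in TNFα treated and untreated SIMPL-/- MEFs, against 8.68 and 8.71 in the matching littermate MEFs. Itga2b, a defining integrin of this lineage, had a log2 difference of 0.15 after TNFα (limma adjusted p = 0.141) and 0.15 without it (limma adjusted p = 0.123). All 9 lymphoid, 7 mast cell and 7 endothelial markers measured were dim, meaning that their mean lay under 7.06, the median over all genes.

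**Figure D4:**
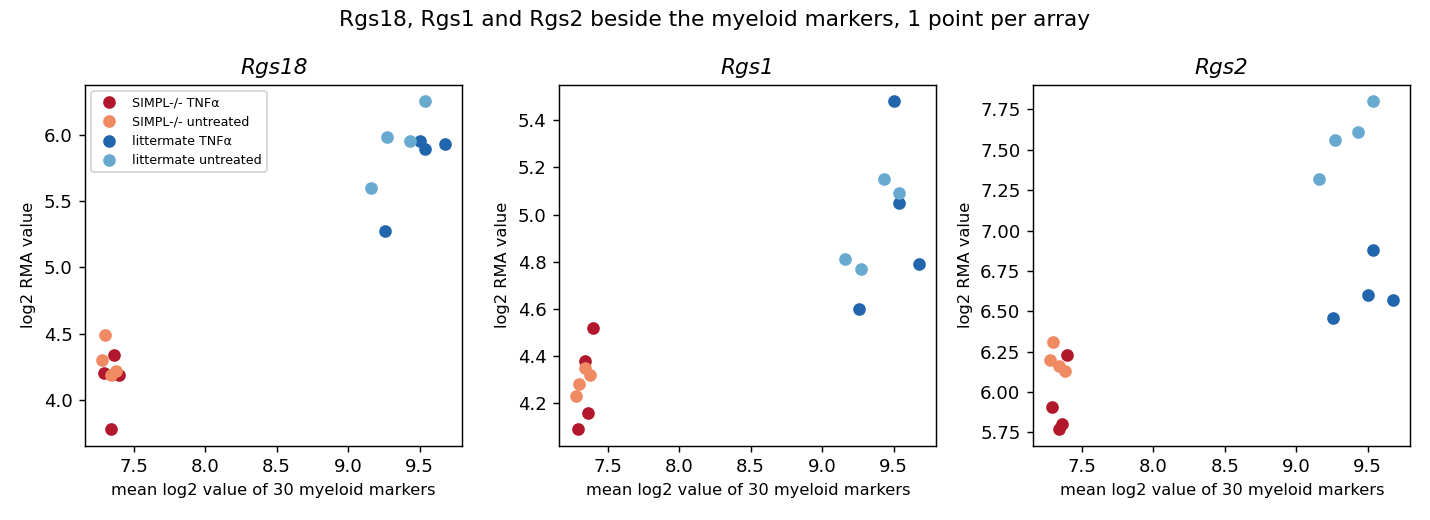
Log2 RMA values of Rgs18, Rgs1 and Rgs2 (vertical axes) against the mean log2 value of 30 myeloid markers on the same array (horizontal axes), 1 point per array, coloured by genotype and TNFα treatment. SIMPL-/- arrays gather at a marker mean of 7.28 to 7.40 with low values of each gene, and littermate arrays at 9.16 to 9.68 with higher ones; treated littermate arrays lie below untreated ones for Rgs2 alone.

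The TNFα changes were read beside the same list. In SIMPL-/- MEFs 0 of the 30 myeloid markers were called with TNFα by limma, where 1.73% of all genes rose and 1.39% fell. At an unadjusted p under 0.05, 2 of the markers were higher there, and 0 passed by the methods' t-test. In littermate MEFs 2 rose and 0 fell by limma, where 2.7% of all genes rose and 2.45% fell. At an unadjusted p under 0.05, 5 were higher in littermate MEFs, and 1 passed by the methods' t-test. The difference between the responses was called negative for 1 of the 30 markers, against 0.441% of all genes. The 11 pericyte and smooth muscle markers, relevant because Rgs4 and Rgs5 are known from mural cells, had a mean log2 value of 9.09 to 9.14 in TNFα treated and 9.06 to 9.10 in untreated SIMPL-/- MEFs, against 8.79 to 8.82 and 8.78 to 8.91 in the matching littermate MEFs. By limma 6 of these 11 markers were higher and 2 lower in SIMPL-/- MEFs after TNFα, and 5 higher and 2 lower without it. Over all genes 17.8% were higher and 18.4% lower after TNFα, and 23.3% higher and 17.6% lower without it. The part of the mural markers in the genotype difference of Rgs4 was not tested. Of the 12 fibroblast markers 1, Fap, was dim. The list had a mean log2 value of 11.90 to 12.00 over SIMPL-/- arrays, against 12.37 to 12.48 over littermate arrays. In both comparisons 9 of the 12 were lower and 2 higher in SIMPL-/- MEFs, beside the same shares of all genes.

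Rgs3, Rgs5 and Rgs19 were not called in any of the 5 comparisons. Rgs3, an R4 protein acting on Gi and Gq, had mean log2 values of 7.72 in TNFα treated SIMPL-/-, 7.73 in untreated SIMPL-/-, 7.83 in TNFα treated littermate and 7.86 in untreated littermate MEFs. Its genotype difference had a 95% interval of −0.29 to 0.07 after TNFα and −0.31 to 0.05 without it. A dimmer probe set of Rgs3 gave genotype differences of 0.11 and 0.08, opposite in sign, and TNFα differences within 0.03 of zero.

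Rgs5, the R4 protein of pericytes, was dim, with means of 5.18, 5.14, 5.19 and 5.09 in TNFα treated SIMPL-/-, untreated SIMPL-/-, TNFα treated littermate and untreated littermate MEFs. One TNFα treated littermate array read 5.62, against 4.98 to 5.12 on the remaining arrays of that group. Rgs19, an RZ protein also known as GAIP, was bright and even, with means of 9.10, 9.06, 9.01 and 9.02 in the same order of groups and all 16 arrays between 8.97 and 9.13. Its genotype difference after TNFα had a 95% interval of −0.01 to 0.19, so a change of this small size is not excluded by the interval.

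Of the 9 genes, Rgs1, Rgs2, Rgs5, Rgs17 and Rgs18 had mean levels under the median of all genes, and Rgs3, Rgs4, Rgs16 and Rgs19 above it. Array values near the background compress fold changes, and how near each of the first 5 lay to it was not tested. A mean under that median, 7.06, does not by itself place a gene at the background. Rgs2 read 7.32 to 7.80 in untreated littermate MEFs.

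By RefSeq gene order, 6 of the 10 listed genes lie on chromosome 1 in 3 places. Rgs2, Rgs13, Rgs1, Rgs21 and Rgs18 follow one another, with no other protein-coding gene between them. The listed genes of that run, Rgs2, Rgs1 and Rgs18, were the 3 that were lower in SIMPL-/- MEFs. The intervening genes were near background in all groups, with mean log2 levels of 3.37 to 3.51 for Rgs13 and 3.51 to 3.65 for Rgs21, and were not called. Rgs16 adjoins Rgs8, whose mean was 6.35 in TNFα treated and 6.30 in untreated SIMPL-/- MEFs, against 6.13 and 6.08 in the matching littermate MEFs. Rgs4 adjoins Rgs5, of which only Rgs4 was called, and no difference between the 2 genes was tested.

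All 11 remaining numbered Rgs genes were measured, and 0 of them were called for a TNFα response in either genotype, or for the difference, by limma. Of all genes 1.73% rose and 1.39% fell with TNFα in SIMPL-/- MEFs, and 2.7% rose and 2.45% fell in littermate MEFs. The difference was called positive for 0.0953% and negative for 0.441%. Beside such small shares, a count of 0 among 11 genes is read as description. At an unadjusted p under 0.05, 2 were higher in SIMPL-/- MEFs, 1 lower in littermate MEFs and 1 positive for the difference, and by the methods' t-test 0 passed in each. After TNFα 5 of the 11 were higher and 0 lower in SIMPL-/- MEFs, and without it 3 were higher and 0 lower. Of all genes 17.8% were higher and 18.4% lower after TNFα, and 23.3% higher and 17.6% lower without it. By the methods' t-test 1 of the 11 was higher after TNFα and 2 without it. Rgs12, an R12 protein with several interaction domains, had log2 values of 9.10 to 9.39 in TNFα treated SIMPL-/- MEFs, against 8.29 to 8.37 in TNFα treated littermate MEFs (log2 difference 0.86, limma adjusted p = 1.02e-08). Rgs6, an R7 protein that pairs with Gβ5, differed by 0.37 after TNFα and 0.39 without it, and Rgs8 by 0.22 and 0.23.

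The partners of RGS proteins were taken from lists of the same pathway. Of 35 listed receptors for the fibroblast ligands named above and related ones, 23 were measured. Among these 23, 4 rose and 2 fell with TNFα in SIMPL-/- MEFs, and 5 rose and 1 fell in littermate MEFs. Over all genes the shares were 1.73% higher and 1.39% lower in SIMPL-/- MEFs, and 2.7% higher and 2.45% lower in littermate MEFs. The receptor list was chosen with earlier results of these data known, so its counts are read as description. By the methods' t-test 1 receptor rose and 0 fell in SIMPL-/- MEFs, and 5 rose and 0 fell in littermate MEFs. Bdkrb1, the inducible bradykinin receptor, rose by 1.001 in SIMPL-/- and 1.115 in littermate MEFs (log2, limma adjusted p = 1.18e-06 and 1.28e-07), and the S1P receptor S1pr1 rose by 0.43 in SIMPL-/- and 0.47 in littermate MEFs (limma adjusted p = 0.00166 and 0.000329). Bdkrb2, the constitutive bradykinin receptor, rose by 0.37 in SIMPL-/- and by 0.48 in littermate MEFs (limma adjusted p = 0.0259 and 0.00239). The prostaglandin E2 receptor Ptger4 fell by 0.28 in SIMPL-/- MEFs and had a difference between responses of −0.46 (limma adjusted p = 0.0139), the single receptor called for it. Its untreated level was 0.81 higher in SIMPL-/- than in littermate MEFs, and its 4 group means stood in the same order as those of Rgs4.

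Among 15 measured G protein α subunits, the RGS substrates, Gna13 alone changed with TNFα, rising by 0.32 in littermate MEFs (limma adjusted p = 0.00137). Of all genes 2.7% rose and 2.45% fell with TNFα in littermate MEFs, and 1.73% rose and 1.39% fell in SIMPL-/- MEFs. A single call among 15 is read as description. Between genotypes 3 of the 15 subunits were higher and 4 lower after TNFα, and 4 higher and 3 lower without it. Over all genes 17.8% were higher and 18.4% lower after TNFα, and 23.3% higher and 17.6% lower without it. Gnai1, a Gi subunit, was higher in SIMPL-/- MEFs by 0.93 after TNFα and 0.83 without it (limma adjusted p = 3.63e-10 and 2.16e-09), while Gna15, a Gq family subunit of blood cells, was lower by 0.66 and 0.67. Of 17 β and γ subunits 2 were higher and 6 lower after TNFα, and 2 higher and 4 lower without it. The same shares of all genes apply, and the counts of subunits are read as description. Gnb4 was 0.77 higher after TNFα and 0.90 higher without it.

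Among 20 measured effectors, 3 were higher and 7 lower in SIMPL-/- MEFs after TNFα, and 5 higher and 7 lower without it. Over all genes 17.8% were higher and 18.4% lower after TNFα, and 23.3% higher and 17.6% lower without it, so these counts are read as description. Pik3cg, the PI3 kinase catalytic subunit driven by Gβγ in leukocytes, had differences of −1.71 and −1.62, and its partner Pik3r5 rose by 0.43 with TNFα in littermate MEFs (limma adjusted p = 0.0029), the single effector called with TNFα, whereas the methods' t-test called 0. Among 9 receptor kinases and arrestins, Arrb2, which uncouples receptors from G proteins, had genotype differences of −1.30 after TNFα and −1.29 without it (limma adjusted p = 1.07e-10 and 1.34e-10). Among 9 further modulators of G protein cycling, Gpsm2, which holds Gi α subunits in their GDP form, fell with TNFα by 0.28 in SIMPL-/- and by 0.31 in littermate MEFs (limma adjusted p = 0.00792 and 0.00211). By the methods' t-test 0 of these modulators passed in SIMPL-/- MEFs and 1 in littermate MEFs. Of 9 further genes with an RGS domain, Akap10 alone was called with TNFα, falling by 0.25 in littermate MEFs (limma adjusted p = 0.0291). With TNFα 1.73% of all genes rose and 1.39% fell in SIMPL-/- MEFs, and 2.7% rose and 2.45% fell in littermate MEFs. Beside these shares, the TNFα calls among effectors, modulators and genes with an RGS domain are read as description.

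For the 3 genes called with TNFα, likeness was measured as the root mean square distance over 3 group-mean differences from untreated littermate MEFs, so a smaller value is a closer match. Nearest to Rgs16, whose differences were 2.19 in treated SIMPL-/-, 1.09 in untreated SIMPL-/- and 1.68 in treated littermate MEFs, were Csf1 (0.22), Klf10 (0.30) and Nr4a3 (0.34). Nearest to Rgs4, with differences of 1.46, 1.71 and 0.82 in the same order, were Gprc5a (0.32), Fbxo32 (0.33) and Foxs1 (0.33). Nearest to Rgs2, with −1.64, −1.37 and −0.94, were Stat2 (0.30), Ephb3 (0.30) and Ccr1 (0.34). The 3 genes nearest to Rgs16 had its order of group means. Those nearest to Rgs4 did not, since Gprc5a, Fbxo32 and Foxs1 had higher means in treated than in untreated SIMPL-/- MEFs, and Ccr1 departed from the order of Rgs2 in the same place.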

How the data were processed

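Total RNA of 16 MEF cultures, 4 per group, was hybridised to Affymetrix Mouse Gene 1.0 ST arrays. The deposited table holds log2 intensities made by the authors; the submitters' processing notes name Partek and RMA without versions, whereas the published methods name Affymetrix Microarray Suite. RMA subtracts background, quantile normalizes arrays and summarises probes, which shrinks differences of dim genes. Of 28853 probe sets, 21789 carry 1 gene symbol, 1621 several and 5443 none in the annotation used; those with 1 symbol were kept and the brightest per gene gave 19938 genes.

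A group-means model over all 16 arrays was fitted with limma 3.58.1 in R 4.3.3 (12 residual degrees of freedom, two-sided), with Benjamini-Hochberg adjustment over all 19938 genes and a call at an adjusted p under 0.05. The 5 comparisons were treated minus untreated arrays within each genotype, SIMPL-/- minus littermate arrays with and without TNFα, and the interaction of both factors. The comparisons share arrays. Intervals are 95%. Precision is limited by the small number of arrays. The fit was tested on simulated data.

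The Rgs genes and all gene lists were chosen with earlier results of these data known. All listed Rgs genes are named, with Irak1bp1, up to 2 rises and 2 falls per pathway list and comparison, and the 3 genes nearest to each TNFα-called Rgs gene; the remaining numbered Rgs genes and single markers were named after their values were seen. Promoters are RefSeq windows of GRCm38.p6; the build behind the array annotation is not given in the sources used here, so no gene coordinates are printed. Alternatives were scaling, dim genes, probe set averaging, variance moderation, array weights, thresholds, the methods' t-test, arrays in the fit and leaving out each array.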

Additional observations from a re-analysis of the deposited data

Results flagged for a closer look

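The TNFα responses of 2 Rgs genes differed between genotypes by the interaction term of limma. For Rgs4 the response in SIMPL-/- minus that in littermate MEFs was −1.07, with treated minus untreated differences of −0.25 in SIMPL-/- and 0.82 in littermate MEFs; for Rgs16 it was −0.58, with rises of 1.11 and 1.68. The littermate untreated arrays were the lowest group for both genes.

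One array stood apart from its group. Rgs18 read 5.27 on the fourth TNFα treated littermate array and 5.89 to 5.95 on the remaining 3, a gap of 0.918 of the group's range, beyond Dixon's 95% limit for 4 arrays; a small share of groups passes that limit by chance. The myeloid marker mean on that array was 9.26, the lowest of its group, and its part in the Rgs18 value was not tested.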

How the results depend on the processing

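There were 26 alternative settings, 16 of which left out 1 array, and each of the 45 values was fitted in 24 to 26 of them. The dim Rgs genes were absent where dim genes were left out, and the difference between responses was absent where the compared arrays were fitted alone. Of the called values 0 reversed, and 14 of 18 kept their call in every setting that fitted them. The remaining 4 were Rgs16 for the difference between responses, Rgs16 after TNFα and Rgs17 without TNFα, which fell short of a 1.5-fold change, and Rgs1 after TNFα under the methods' t-test (adjusted p = 0.0594). With quantile normalization 2 Rgs genes were called for the TNFα response in SIMPL-/- MEFs, Rgs17 joining Rgs16 (0.29, limma adjusted p = 0.0464). With dim genes left out only 4 of the 9 were tested, and 2 (Rgs4 and Rgs16) were called between genotypes after TNFα and 2 without it. With a fold over 1.5 required, 1 (Rgs4) was called for the difference between responses. Leaving out 1 array gave 1 call in SIMPL-/- MEFs, 3 to 4 in littermate MEFs, 2 to 3 for the difference and 6 in each genotype comparison. The Rgs2 difference between responses had an adjusted p of 0.0182 to 0.16 over its alternatives, the lowest with trend and robust moderation, and Rgs19 after TNFα was called with median centring (0.16, limma adjusted p = 0.0146) and with quantile normalization (0.13, limma adjusted p = 0.0459). The causes were not tested. With 4 derivations per strain by the methods and 4 arrays in each group, treated and untreated arrays of a strain would share derivations. The labels and methods do not say which treated array belongs with which untreated one, so no paired analysis was possible. The model treated all 16 arrays as independent.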
